A study of Homo sapiens with 6 samples.

Results

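Chromatin remodelers are enzymes that use ATP to slide, eject or exchange nucleosomes, and so set which stretches of DNA the transcription machinery can reach. The SWI/SNF complex is built around 1 ATPase, SMARCA4 or SMARCA2, on a set of core subunits, and carries an ARID protein that separates its forms: ARID1A or ARID1B in the canonical form and ARID2 in the polybromo form. The ISWI ATPases space nucleosomes, and the CHD proteins join a similar motor to chromodomains that bind histone tails. In Ewing sarcoma the EWS-FLI1 fusion protein is known to recruit SWI/SNF to DNA.

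The genes described here were the protein-coding genes of the deposited table whose symbol begins with SMARC, or with ARID or CHD followed by a digit. There were 33 of them among 27420 listed genes, of which 20311 were protein-coding: 13 SMARC, 10 ARID and 10 CHD genes. RNA was sequenced from A673 and SKNMC, established Ewing sarcoma cell lines that carry the EWS-FLI1 fusion, after 6 h with vehicle (DMSO) or with THZ1 at 50 nM or 200 nM. THZ1 is a covalent inhibitor of CDK7, a kinase that phosphorylates the C-terminal domain of RNAP II, and it also acts on CDK12 and CDK13. The comparison asks how the RNA levels of remodelers stood after a low and a high dose of a transcriptional kinase inhibitor, in cells of the 2 lines. Each condition was 1 library of 1 cell line, so no difference within a line has a replicate check, and both THZ1 libraries of a line were set against the same DMSO library. A limma fit over both lines, with the line as a block, was added after the data had been seen.

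Levels are in FPKM, a read count corrected for transcript length and library size, and where 3 levels of a line are given they are in the order DMSO, 50 nM, 200 nM. A change is log2((FPKM + 1) / (FPKM + 1 with DMSO)), which understates the change of low genes, and a gene is active in a line where its DMSO library was above 1 FPKM. The listed FPKM summed to between 451872 and 462997 per library. FPKM holds no read counts, and the most frequent ratio between low values of a THZ1 and a DMSO library was shared by 7 to 10 of 2049 to 2100 genes, so the depth could not be recovered. Cytosolic ribosomal protein genes (83) took 12.8%, 15.1% and 16.6% of the listed FPKM in A673 and 18.0%, 23.3% and 28.1% in SKNMC, and a larger share for them leaves less for other genes. In these bulk samples fewer cells of a type and less RNA per cell cannot be told apart. All 9 Ewing sarcoma markers examined were above 1 FPKM in the 6 libraries. Of 5 haematopoietic, 4 epithelial, 2 endothelial and 3 muscle markers, PTPRC alone passed 1 FPKM, at 7.90 to 13.1 FPKM in SKNMC and at most 0.0291 FPKM in A673, and its part in the results was not tested. PECAM1, also planned as an endothelial marker, is not among those counted.

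Among the 33 genes 31 were active in both lines. CHD5 and ARID3C were active in neither, with at most 0.150 FPKM and 0.0857 FPKM in any library. Without THZ1 the most abundant were subunits of SWI/SNF: SMARCD1 at 77.2 FPKM in A673, and SMARCE1 at 88.7 FPKM in SKNMC. The ARID genes as a group were the least abundant, with a median over the 10 of 5.86 FPKM in A673 and 6.57 FPKM in SKNMC, against 26.7 and 27.9 FPKM over the 13 SMARC genes. At baseline most members differed by less than 2-fold between the lines, as did most genes active in either line. There were 4 genes that were at least 2-fold higher in A673 (CHD7, CHD9, SMARCA1 and ARID5B) and 2 at least 2-fold lower (SMARCE1 and ARID4B), beside 8.42% and 15% of all 12399 genes active in either line. CHD9, a chromodomain ATPase of the third CHD subfamily, stood at 21.3 FPKM in A673 and 7.24 in SKNMC. SMARCE1, an HMG-box subunit of SWI/SNF, stood at 35.9 FPKM in A673 and 88.7 in SKNMC. Its span overlaps that of KRT222 on the same strand by 83.7%, where KRT222 was at most 0.590 FPKM, and it has 7 named pseudogenes, so its level is less certain than that of the others.

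**Figure D1:**
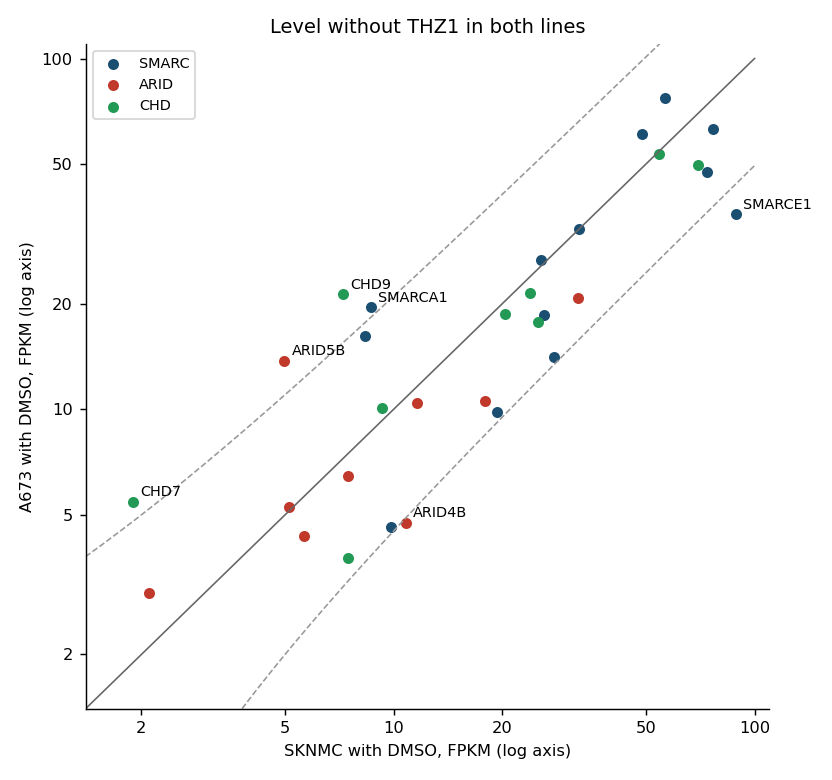
Level of the 31 active genes in A673 with DMSO (vertical axis) against SKNMC with DMSO (horizontal axis), both in FPKM on log axes and coloured by name stem; 1 point is 1 gene in 1 library per line. The solid line marks equal levels and the dashed lines a 2-fold difference of FPKM + 1, which the 6 named genes pass.

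With 200 nM THZ1 about 1 in 3 remodeler genes stood at least 2-fold below DMSO, and they were mostly ARID genes. In A673, 11 of the 31 were lower (35.5%), where 25.3% of all active genes were, and in SKNMC 10 (32.3%), where 27.3% were. Of the 9 active ARID genes 7 were lower in A673 and 6 in SKNMC. Of the 9 active CHD genes 3 and 2 were, near the share of all active genes, and of the 13 SMARC genes 1 and 2. With 50 nM, 4 were lower in A673 (CHD1, SMARCAD1, ARID3A and SMARCAL1, 12.9%) beside 15.9% of all active genes, and 3 in SKNMC (SMARCAD1, SMARCAL1 and ARID5B, 9.68%) beside 15.8%. Nothing about the set is read from how many of its genes were lower. At least 2-fold higher levels were found in SKNMC with 50 nM THZ1, for CHD2 and CHD6, beside 0.471% of all active genes. The other 3 THZ1 comparisons held no such member, beside 0.343% and 0.126% of active genes in A673 with 50 and 200 nM and 0.462% in SKNMC with 200 nM. The 31 genes had a median change of -0.08 (50 nM) and -0.36 (200 nM) in A673, where all active genes had -0.27 and -0.40. The corresponding values for SKNMC were -0.25 and -0.56 for the 31 genes, beside -0.32 and -0.55.

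**Figure D2:**
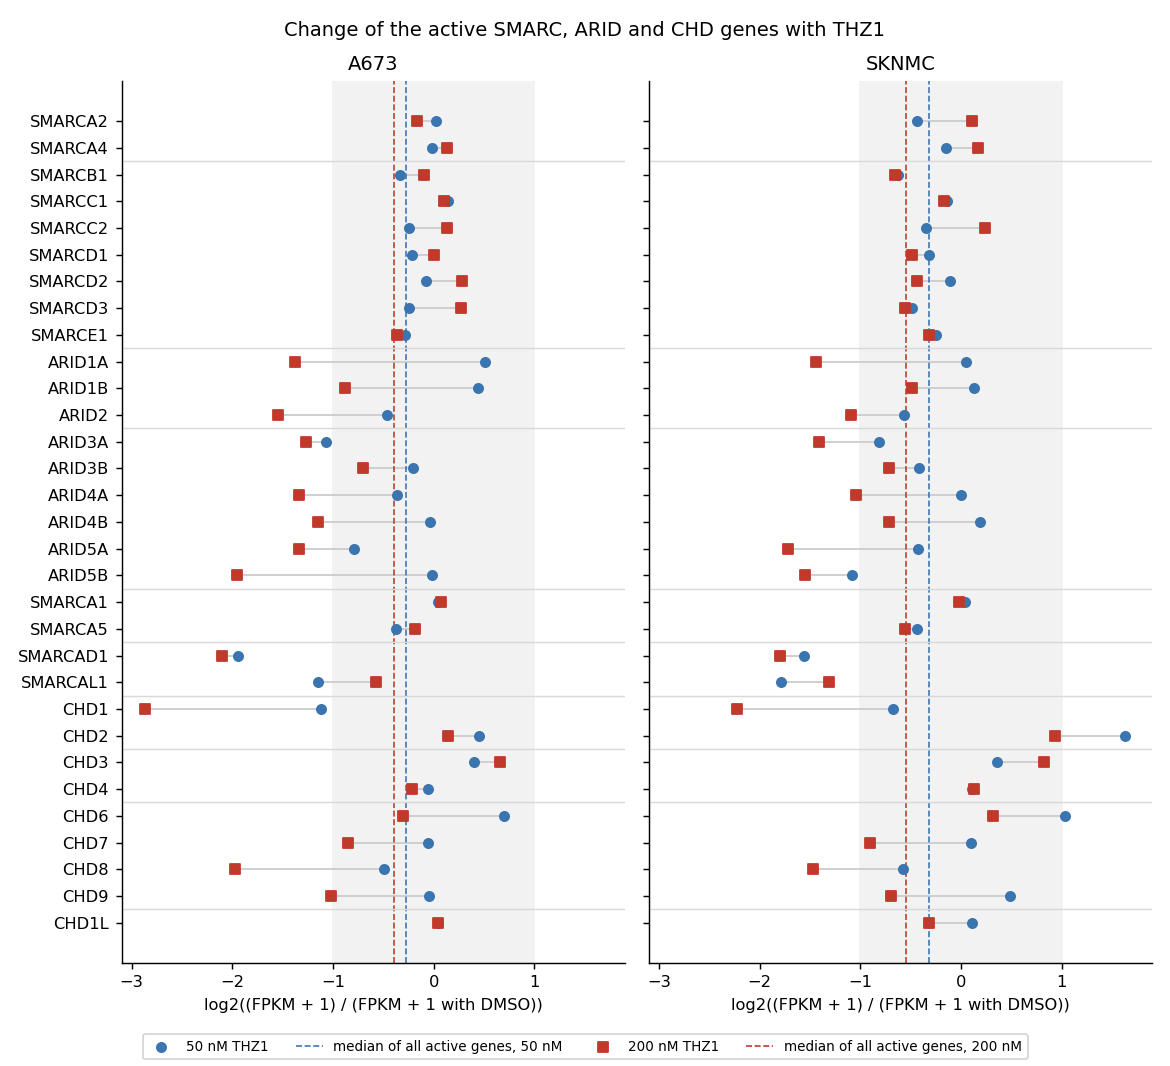
Change of each of the 31 active genes with 50 nM (circles) and 200 nM THZ1 (squares) against DMSO, in log2 units, in A673 and SKNMC, grouped by role; 1 point is 1 library against 1 DMSO library. Dashed lines are the medians of all active genes, the grey band spans changes under 2-fold, and the ARID genes with 200 nM lie left of the band in 7 of 9 cases in A673 and 6 of 9 in SKNMC.

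The level of any change depends on how the libraries are scaled. With each library set to a common 75th percentile over active genes, the all-gene median lay higher by 0.22 (50 nM) and 0.32 (200 nM) in A673 and by 0.25 and 0.48 in SKNMC. With a common median of the ribosomal protein genes it shifted by -0.20, -0.33, -0.29 and -0.47. Group values below are therefore also set against the median of all active genes, and ratios between genes of 1 library, which no scaling of libraries changes, are given where paralogs are compared.

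When both lines were fitted together, 17 of the 31 genes were lower with 200 nM at an adjusted p under 0.05 and 1, CHD3, was higher, beside 52.7% and 6.08% of the 10574 genes active in both lines. This limma fit of log2(FPKM + 1) takes the line as a block. Its residual error is therefore how far the lines differ in their response to a dose, with 2 residual degrees of freedom. It is not the spread between cultures. The fit draws the error of each gene toward the trend over all fitted genes, with 9.48 prior degrees of freedom. An SE is therefore not that gene's own difference between the lines alone. All 9 active ARID genes were among those lower. ARID1A had a mean change of -1.41 (SE 0.17, adjusted p = 2.57e-05), ARID2 of -1.32 (SE 0.19, adjusted p = 0.000114) and ARID1B of -0.68 (SE 0.19, adjusted p = 0.00885). Of the ATPases and core subunits of SWI/SNF, SMARCB1 and SMARCE1 passed, with adjusted p = 0.0485 and 0.0397. The change of CHD1 was -2.55 (SE 0.19, adjusted p = 1.97e-06) and that of CHD3 0.74 (SE 0.13, adjusted p = 0.000365). With 50 nM, 8 genes were lower and 3 higher (CHD2, CHD3 and CHD6), beside 38.5% and 5.12%, and between the doses 12 were lower with 200 nM and 1, SMARCC2, was higher, beside 23.2% and 3.37%. ARID1A differed between the doses by -1.69 (adjusted p = 7.07e-05), while with 50 nM it stood at 0.28 against DMSO (adjusted p = 0.197). With the 75th percentile scaling, 12 members were lower and 7 higher with 200 nM, beside 32% and 24.7% of all fitted genes. ARID1B, ARID3B, CHD9, SMARCB1 and SMARCE1 then no longer passed as lower. With the ribosomal protein scaling 25 were lower and 0 higher, beside 76.8% and 0.359%, so the call of CHD3 also rests on the scaling.

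The ATPases of SWI/SNF stayed within 2-fold of DMSO in the 4 THZ1 libraries. SMARCA4, also known as BRG1 (ENSG00000127616, hg19 chr19:11071597-11176071), stood at 60.8, 59.95 and 66.5 FPKM in A673 and at 48.9, 44.1 and 55.2 FPKM in SKNMC. SMARCA2, its paralog BRM (ENSG00000080503, hg19 chr9:2015341-2193624), stood at 16.2, 16.4 and 14.3 FPKM in A673 and at 8.31, 5.85 and 9.06 FPKM in SKNMC. SMARCA4 was thus the more abundant ATPase in all 6 libraries, by 3.76, 3.65 and 4.65 times in A673 and 5.88, 7.54 and 6.09 times in SKNMC. The changes of SMARCA4 with 200 nM, 0.13 in A673 and 0.17 in SKNMC, turned to -0.22 and -0.41 with the ribosomal protein scaling.

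The 7 core and accessory subunits, which hold the complex together, were also within 2-fold of DMSO in each comparison. In A673 with DMSO the highest was SMARCD1, at 77.2, 66.4 and 77.3 FPKM with the 3 treatments, and the lowest SMARCD3, at 9.84, 8.17 and 12.05 FPKM. In SKNMC the highest was SMARCE1, at 88.7, 74.4 and 70.9 FPKM, and the lowest SMARCD3, at 19.3, 13.5 and 12.8 FPKM. SMARCB1, the subunit lost in rhabdoid tumours, was named for that role after its values were seen and stood at 62.8, 49.6 and 58.5 FPKM in A673 and at 76.9, 49.5 and 48.4 in SKNMC. Over the 9 ATPases and core subunits the median change was -0.21 and 0.11 in A673 and -0.32 and -0.32 in SKNMC. With 200 nM it lay above the median of all active genes by 0.48 to 0.56 in A673 and by 0.12 to 0.31 in SKNMC over the 5 pseudocounts and scalings tried. None of the 9 was 2-fold lower in a THZ1 library, except that the ribosomal protein scaling put 3 of them there in SKNMC with 200 nM.

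With 200 nM the changes of ARID1A and ARID2 lay below those of each ATPase and core subunit in both lines, and that of ARID1B did so in A673 but lay within their range in SKNMC. ARID1A, the DNA-binding subunit of canonical SWI/SNF (ENSG00000117713, hg19 chr1:27022523-27108595), stood at 20.7, 29.9 and 7.36 FPKM in A673 and at 32.5, 33.7 and 11.3 FPKM in SKNMC. Its level with 200 nM was 35.5% of DMSO in A673 and 34.8% in SKNMC. ARID1B, which takes its place in some complexes (ENSG00000049618, hg19 chr6:157099062-157531913), stood at 10.6, 14.7 and 5.28 FPKM in A673 and at 17.9, 19.7 and 12.5 FPKM in SKNMC. ARID2, the ARID subunit of the polybromo form (ENSG00000189079, hg19 chr12:46123447-46301823), stood at 10.4, 7.27 and 2.92 FPKM in A673 and at 11.6, 7.49 and 4.93 FPKM in SKNMC. With 200 nM the changes of ARID1A and ARID2 passed 2-fold in both lines, at -1.38 and -1.54 in A673 and -1.44 and -1.09 in SKNMC. Both stayed below DMSO under the other pseudocount and each scaling, but the 75th percentile scaling put them within 2-fold in SKNMC. ARID1B missed 2-fold, at -0.88 and -0.49, and its value in SKNMC turned to 0.05 under the 75th percentile scaling. With the ribosomal protein scaling it passed 2-fold in both lines, at -1.23 and -1.03.

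The low dose gave ARID1A and ARID1B another direction than the high dose in A673. There ARID1A was at 144.2% and ARID1B at 138.5% of DMSO with 50 nM, changes of 0.51 and 0.43 that kept their sign under each pseudocount and scaling tried. In SKNMC the changes with 50 nM were 0.05 and 0.13, and the ribosomal protein scaling turned them to -0.28 and -0.19. ARID2 was below DMSO at 50 nM in both lines, by -0.46 in A673 and -0.57 in SKNMC. From 50 to 200 nM, ARID1A differed by -1.88 in A673 and -1.49 in SKNMC. Set against the 50 nM library, 8 of the 31 remodelers were at least 2-fold lower with 200 nM in A673 (25.8%), where 7.44% of all active genes were, and 6 in SKNMC (19.4%), where 8.39% were. None was 2-fold higher, beside 0.117% and 0.37% of all active genes. ARID1A and CHD1 were lower in this comparison in both lines, 2 of 31 beside 5.22% of the 10574 genes active in both.

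Within each library the 3 ARID subunits summed to 11.7%, 16.0% and 4.31% of the summed FPKM of the 9 ATPases and core subunits in A673. In SKNMC the sums were 14.6%, 17.8% and 8.198%. The summed ARID RNA relative to these 9 genes was therefore lower with 200 nM than with DMSO in both lines and higher with 50 nM, whichever scaling is used. Other SWI/SNF subunits were not part of either sum. With 50 nM the ARID sum was 124.2% of its DMSO level in A673 and 98.1% in SKNMC. The sum of the 9 was 90.9% and 80.9%, so in SKNMC the higher ratio came with a lower sum of the 9. ARID2 alone went the other way. With 50 nM it was at 69.8% of its DMSO level in A673 and 64.5% in SKNMC, and so lower relative to the 9 in both lines. ARID1A was 1.96, 2.04 and 1.39 times as abundant as ARID1B in A673 and 1.81, 1.71 and 0.904 times in SKNMC. ARID2 made up 24.95%, 14.0% and 18.8% of the 3 in A673 and 18.7%, 12.3% and 17.1% in SKNMC.

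**Figure D3:**
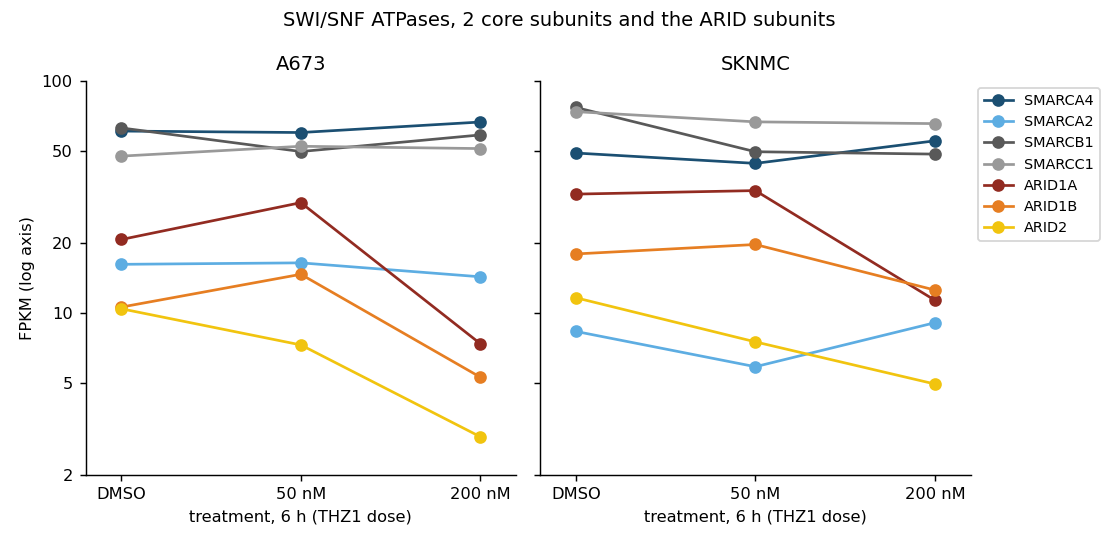
Level in FPKM (log axis) of the SWI/SNF ATPases SMARCA4 and SMARCA2, the core subunits SMARCB1 and SMARCC1, and the subunits ARID1A, ARID1B and ARID2 with DMSO, 50 nM and 200 nM THZ1 for 6 h; each point is 1 library. With 200 nM ARID1A reached 7.36 FPKM in A673 and 11.3 in SKNMC, while SMARCA4 was at 66.5 and 55.2 FPKM.

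The other ARID genes encode DNA-binding proteins outside SWI/SNF, and 6 of 7 were active. With 200 nM, 5 of the 6 were at least 2-fold lower in A673 and 4 in SKNMC, beside 25.3% and 27.3% of all active genes. The 75th percentile scaling left 3 and 2 of them there, and the ribosomal protein scaling put 6 and 5 there. Among all genes active in both lines, these scalings put 10.1% and 33.8% lower in both, in place of 20.4%. That measure is stricter than a count by line and is not its background. ARID3A, a transcription factor that binds E2F1, stood at 6.45, 2.54 and 2.09 FPKM in A673 and at 7.495, 3.82 and 2.203 FPKM in SKNMC. ARID4A, which binds the retinoblastoma protein and joins SIN3 corepressor complexes, stood at 5.27, 3.89 and 1.48 FPKM in A673 and at 5.13, 5.11 and 1.98 FPKM in SKNMC. ARID5A, which also binds and stabilises some mRNAs, stood at 4.34, 2.08 and 1.11 FPKM in A673 and at 5.64, 3.95 and 1.02 FPKM in SKNMC. All 3 had their lowest level with 200 nM in both lines.

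ARID5B, a partner of the histone demethylase PHF2, differed between the lines at the low dose. It stood at 13.7, 13.5 and 2.82 FPKM in A673, where 50 nM left it at 98.6% of DMSO, and at 4.98, 1.81 and 1.04 FPKM in SKNMC, where 50 nM left it at 36.4%. With 1 library per dose and line, that contrast has no test here. ARID3B and ARID4B, the remaining active members, were between 0.879 and 3.002 FPKM and between 1.60 and 12.4 FPKM over the 6 libraries. ARID4B shares 15.2% of its span with RBM34 on the same strand, which stood at 21.04, 10.6 and 6.71 FPKM in A673 and at 36.3, 20.1 and 13.8 in SKNMC, so reads in the shared stretch could count for either.

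Over the 9 active ARID genes together the median change with 200 nM was -1.34 in A673 and -1.09 in SKNMC, and 9 and 8 of them lay below the median of all active genes. Under the 5 pseudocounts and scalings the ARID median lay from that of all active genes by -0.94 to -1.13 in A673 and by -0.54 to -0.69 in SKNMC. In A673 the summed ARID level was 102.1% of DMSO with 50 nM and 33.0% with 200 nM. In SKNMC it was 90.9% and 43.0%. The count that passed 2-fold depended more on the scaling: with the 75th percentile it was 5 of 9 in A673 and 2 of 9 in SKNMC, in place of 7 and 6, and with the ribosomal protein genes 9 and 8. These scalings moved the share of all genes too. Of genes active in both lines, 10.1% and 33.8% were then lower in both, in place of 20.4%. Being lower in both lines is stricter than being lower in 1, so these shares are not the background of the counts by line.

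The ISWI ATPases SMARCA5 and SMARCA1 also stayed within 2-fold of DMSO, except that the ribosomal protein scaling put SMARCA5 at -1.12 in SKNMC with 200 nM. SMARCA5, the more abundant, stood at 32.7, 25.01 and 28.6 FPKM in A673 and at 32.6, 23.7 and 21.8 FPKM in SKNMC. SMARCA1 stood at 19.5, 20.1 and 20.5 FPKM in A673 and at 8.63, 8.87 and 8.46 FPKM in SKNMC. The ratio of SMARCA5 to SMARCA1 was 1.67, 1.24 and 1.39 in A673 and 3.77, 2.67 and 2.58 in SKNMC, lower with THZ1 than with DMSO in each line.

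SMARCAD1 and SMARCAL1 carry SMARC symbols but work outside SWI/SNF, and they were the SMARC genes that passed 2-fold. SMARCAD1, an ATPase that acts in heterochromatin maintenance and DNA end resection (ENSG00000163104, hg19 chr4:95128761-95212443), stood at 14.1, 2.94 and 2.53 FPKM in A673 and at 27.9, 8.83 and 7.31 FPKM in SKNMC. SMARCAL1, an annealing helicase that restarts stalled replication forks (ENSG00000138375, hg19 chr2:217277136-217347776), stood at 4.61, 1.54 and 2.77 FPKM in A673 and at 9.86, 2.14 and 3.38 FPKM in SKNMC. The changes of SMARCAD1 were -1.94 and -2.10 in A673 and -1.56 and -1.80 in SKNMC, and it was at least 2-fold lower in the 4 THZ1 libraries under each of the 5 pseudocounts and scalings. Most of its difference from DMSO was present at 50 nM, since its level with 200 nM was 86.0% of that with 50 nM in A673 and 82.8% in SKNMC. SMARCAL1 ran the other way between the doses: its level with 200 nM was 180.0% of that with 50 nM in A673 and 158.2% in SKNMC.

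Of the CHD genes, the first subfamily split. CHD1, which binds trimethylated H3K4 at active genes (ENSG00000153922, hg19 chr5:98190907-98262240), stood at 21.5, 9.33 and 2.08 FPKM in A673 and at 23.8, 14.5 and 4.29 FPKM in SKNMC. CHD2, its closest paralog (ENSG00000173575, hg19 chr15:93426525-93571237), was picked out after its values were seen and stood at 10.1, 14.2 and 11.3 FPKM in A673 and at 9.26, 30.8 and 18.6 FPKM in SKNMC. CHD1 had the lowest change with 200 nM of all 31 genes in both lines, -2.87 in A673 and -2.23 in SKNMC. That left it at 9.68% and 18.0% of its level with DMSO. CHD2 stood at 332.2% of its DMSO level in SKNMC with 50 nM, a change of 1.63 that lay between 1.31 and 1.903 over the pseudocounts and scalings. Its change in A673 with 200 nM, 0.14, turned to -0.18 with the ribosomal protein scaling.

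The ratio of CHD2 to CHD1 within a library was 0.469, 1.52 and 5.40 in A673 and 0.389, 2.12 and 4.34 in SKNMC. CHD1 was thus the more abundant of the pair with DMSO, and CHD2 with each dose of THZ1. In CHD1 the higher dose had the lower level in both lines, whereas CHD2 was lower with 200 nM than with 50 nM and, as deposited, not below DMSO.

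CHD3 and CHD4, the second subfamily, are the motors of the NuRD complex, which couples remodeling to histone deacetylation. CHD3 (ENSG00000170004, hg19 chr17:7788123-7816078) stood at 53.5, 70.9 and 84.99 FPKM in A673 and at 54.5, 70.0 and 97.4 FPKM in SKNMC. CHD4 (ENSG00000111642, hg19 chr12:6679248-6716642) stood at 49.9, 47.9 and 42.8 FPKM in A673 and at 69.6, 75.3 and 76.2 FPKM in SKNMC. CHD3 was above DMSO in the 4 THZ1 libraries, by 0.40 and 0.66 in A673 and 0.36 and 0.83 in SKNMC. As deposited it did not reach 2-fold, and the sign held under each of the 5 pseudocounts and scalings, with values from 0.02 to 1.39. With the 75th percentile scaling it passed 2-fold with 200 nM, at 1.03 in A673 and 1.39 in SKNMC. The ratio of CHD3 to CHD4 was 1.07, 1.48 and 1.99 in A673 and 0.782, 0.930 and 1.28 in SKNMC, highest with 200 nM in each line. CHD3 overlaps LSMD1 on the opposite strand over 434 bases, and LSMD1 stood at 39.3 to 71.8 FPKM. Whether counting used the strand is not given in the sources used here.

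**Figure D4:**
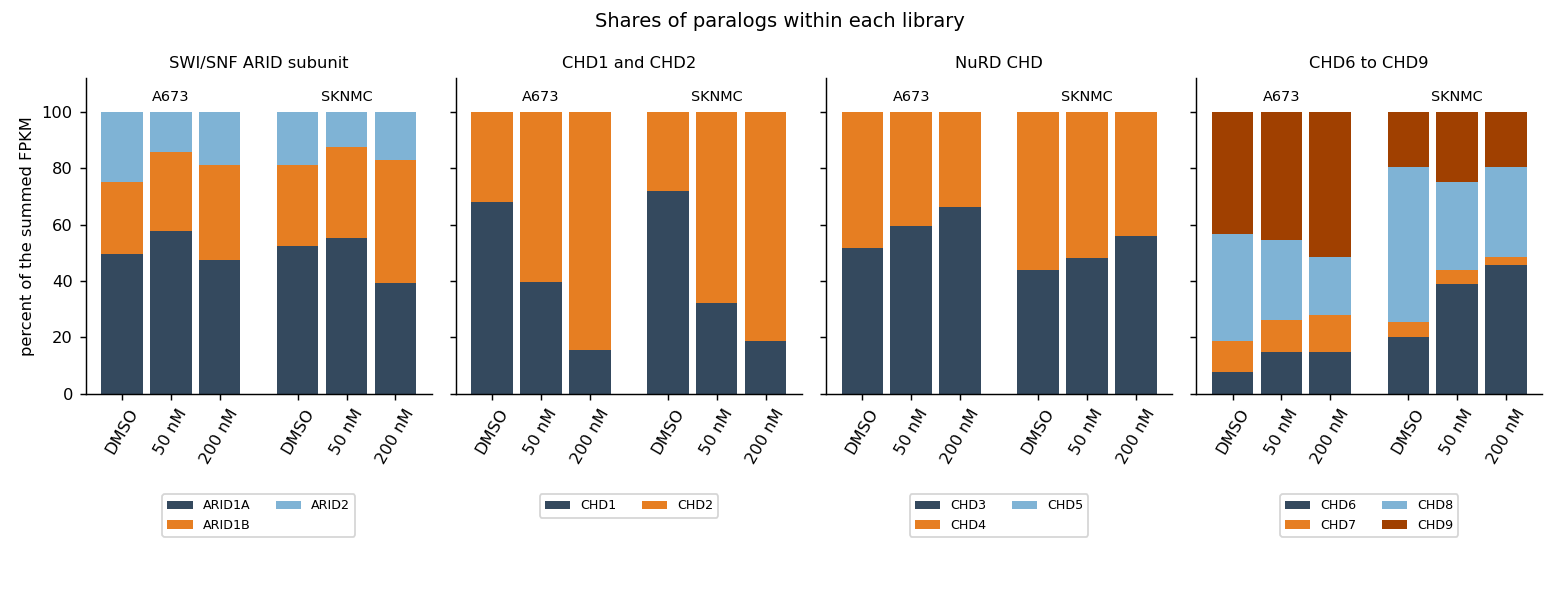
Share of each paralog, in percent of the summed FPKM of its set, in the 6 libraries, for the ARID subunits of SWI/SNF, CHD1 with CHD2, the NuRD ATPases (CHD5 is too low to see) and CHD6 to CHD9; each bar is 1 library. CHD2 passed CHD1 with both doses in both lines, and the CHD3 share was highest with 200 nM.

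The third subfamily, CHD6 to CHD9, holds large ATPases, among them CHD7, mutated in CHARGE syndrome, and CHD8, a regulator of beta-catenin targets. CHD8 (ENSG00000100888, hg19 chr14:21853352-21924285) stood at 18.7, 13.0 and 4.03 FPKM in A673 and at 20.3, 13.3 and 6.69 FPKM in SKNMC, changes of -1.97 and -1.47 with 200 nM. CHD6, picked out after its values were seen, stood at 3.76, 6.69 and 2.84 FPKM in A673 and at 7.49, 16.4 and 9.56 FPKM in SKNMC. The ratio of CHD6 to CHD8 was 0.201, 0.517 and 0.704 in A673 and 0.369, 1.24 and 1.43 in SKNMC. CHD7 and CHD9 were between 0.547 and 5.46 FPKM and between 4.10 and 21.3 FPKM over the libraries. All 4 genes were lower with 200 nM than with 50 nM, by changes of -0.80 to -1.47 in A673 and -0.72 to -1.18 in SKNMC, where the medians of all active genes were -0.02 and -0.14. CHD1L, which has a macrodomain in place of chromodomains, stayed between 17.7 and 18.3 FPKM in A673 and between 19.9 and 27.1 FPKM in SKNMC.

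The genes at least 2-fold lower with 200 nM in both lines were CHD1, CHD8, ARID1A, ARID2, ARID3A, ARID4A, ARID5A, ARID5B and SMARCAD1, 9 of 31 beside 20.4% of the 10574 genes active in both lines. With the 75th percentile scaling 4 of them stayed there, CHD1, ARID5A, ARID5B and SMARCAD1, beside 10.1% of those genes. With the ribosomal protein scaling there were 13, beside 33.8%. To show what lies upstream of these genes, the 250 bases before the transcription start are printed for the 4 that have a single start in the RefSeq promoter table (GRCh38.p14), 5′ to 3′ in the direction of transcription. Whether these starts are the ones used in A673 and SKNMC was not measured. Capitals mark matches to the GC box, GGGCGG, which on the opposite strand reads CCGCCC, and to the CCAAT box, which on the opposite strand reads ATTGG.
CHD1, chr5:98929008-98929257, minus strand: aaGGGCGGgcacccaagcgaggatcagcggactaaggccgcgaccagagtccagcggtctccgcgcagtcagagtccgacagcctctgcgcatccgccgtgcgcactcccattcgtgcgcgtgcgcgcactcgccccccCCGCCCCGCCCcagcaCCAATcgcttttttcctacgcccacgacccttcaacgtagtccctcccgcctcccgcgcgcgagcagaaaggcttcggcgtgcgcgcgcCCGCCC
CHD8, chr14:21437276-21437525, minus strand: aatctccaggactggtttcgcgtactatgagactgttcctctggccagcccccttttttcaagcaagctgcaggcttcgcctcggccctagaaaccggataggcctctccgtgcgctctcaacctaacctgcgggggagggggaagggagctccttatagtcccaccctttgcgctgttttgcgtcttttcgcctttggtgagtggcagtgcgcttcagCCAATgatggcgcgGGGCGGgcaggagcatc
ARID1A, chr1:26695765-26696014, plus strand: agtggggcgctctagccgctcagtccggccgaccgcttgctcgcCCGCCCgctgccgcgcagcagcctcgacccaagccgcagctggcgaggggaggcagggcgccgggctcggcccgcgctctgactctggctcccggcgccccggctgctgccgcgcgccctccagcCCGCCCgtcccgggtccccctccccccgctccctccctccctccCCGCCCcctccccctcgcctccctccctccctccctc
ARID4A, chr14:58298305-58298554, plus strand: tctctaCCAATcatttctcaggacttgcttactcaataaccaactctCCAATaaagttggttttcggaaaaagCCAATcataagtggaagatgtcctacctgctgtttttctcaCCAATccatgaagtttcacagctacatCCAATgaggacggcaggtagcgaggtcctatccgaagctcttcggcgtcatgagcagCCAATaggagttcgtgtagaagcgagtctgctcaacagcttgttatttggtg
The CHD1 window holds 4 GC boxes, of which a pair overlap, and 1 CCAAT box, and that of CHD8 holds 1 of each. The ARID1A window has 3 GC boxes and no CCAAT box, and the ARID4A window 6 CCAAT boxes and no GC box. These windows differ in base composition as well: G and C make up 70.8% of that of CHD1, 59.2% of CHD8, 80.4% of ARID1A and 45.2% of ARID4A. Nothing in the motifs searched is common to the 4. Over all 25 member genes found in the table, 19 had a GC box and 10 a CCAAT box in at least 1 window, and the members' 45 windows had a median of 65.2% G and C, beside 58% over all 35116 windows. In all windows the GC box was found in 42.6% and the CCAAT box in 32.0%, each counted on both strands, and a gene with several starts has several chances to hold a match. The TATA box TATAAA was found in 2 member genes and 10.7% of all windows. The ETS core CCGGAAGT and the repeat GGAAGGAA, of the kind EWS-FLI1 binds, were each found in 1 member gene, SMARCAD1 and SMARCA2, and in 3.42% and 3.06% of all windows.

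The remodeler genes are long. The median span from the first to the last annotated base was 71.3 kb for the 31, beside 31.7 kb for all active genes. In all active genes the share at least 2-fold lower with 200 nM was smallest in genes of 100 kb and over, at 17.2% in A673 and 16.9% in SKNMC. Among remodelers of 50 to 100 kb, 6 of 10 were lower in A673 and 7 of 10 in SKNMC, where 24.4% and 26.3% of all active genes of that span were. Of those of 100 kb and over, 4 of 11 and 2 of 11 were lower, and of those of 10 to 50 kb 1 of 10 in each line, beside 28.3% and 31.5%. Within the class of 100 kb and over, 0 of 3 SMARC genes and 4 of 8 ARID and CHD genes were lower in A673, with median changes of 0.11 and -0.95. In SKNMC these were 0 of 3 and 2 of 8, with medians of 0.11 and -0.70. In the class of 50 to 100 kb, 1 of 3 SMARC genes and 5 of 7 ARID and CHD genes were lower in A673. In SKNMC these were 2 of 3 and 5 of 7. The 3 SMARC genes of this class were SMARCA1, SMARCAD1 and SMARCAL1, which are not SWI/SNF subunits. With 3 SMARC genes in each of these 2 classes, no difference between the families is read from these counts. Of those of 10 to 50 kb, 0 of 7 SMARC genes and 1 of 3 ARID and CHD genes, ARID5A, were lower in each line.

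**Figure D5:**
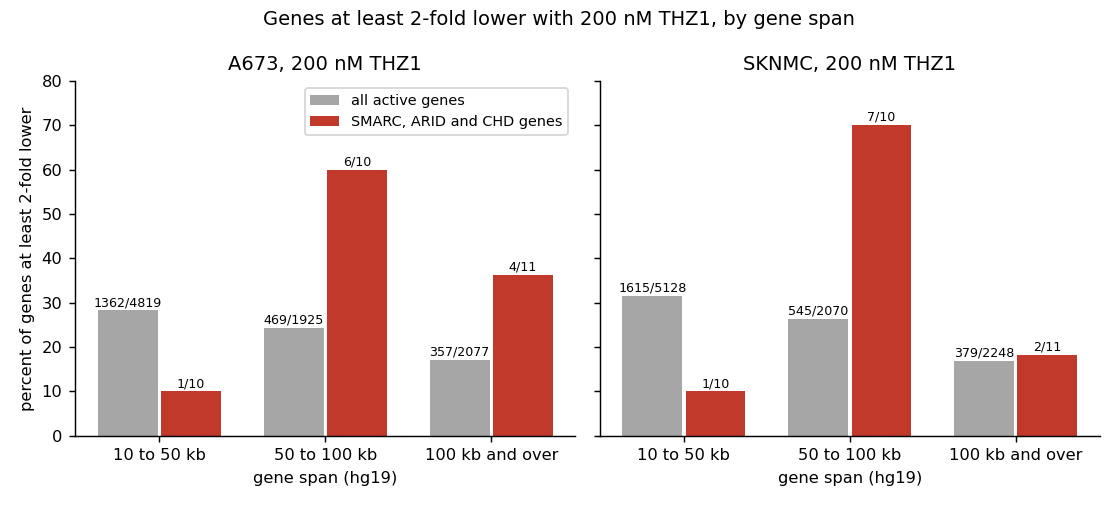
Percent of genes at least 2-fold lower with 200 nM THZ1 than with DMSO, by gene span in hg19, for all active genes (grey) and the SMARC, ARID and CHD genes (red), with the counts above the bars. The remodelers of 50 to 100 kb have the tallest bars, 6 of 10 in A673 and 7 of 10 in SKNMC.

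The partners of the remodelers, 89 genes on 6 lists that hold further complex subunits and related ATPases, were counted in the same way. Of 86 active in A673, 11 were at least 2-fold lower with 50 nM and 28 with 200 nM, beside 15.9% and 25.3% of all active genes. Of 87 active in SKNMC, 15 and 25 were, beside 15.8% and 27.3%. Those shares of all active genes are also the background of each list's counts below, from which nothing particular to a list is read. No partner was 2-fold higher in any THZ1 library. Their median changes were -0.30 and -0.60 in A673 and -0.33 and -0.50 in SKNMC.

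Among 16 active SWI/SNF partner subunits, 3 and 7 were lower in A673 and 4 and 7 in SKNMC. DPF2, a PHD finger subunit of the canonical form, stood at 37.7, 13.7 and 8.26 FPKM in A673 and at 39.9, 16.1 and 9.89 FPKM in SKNMC. GLTSCR1L, a subunit of the form that lacks ARID proteins, stood at 2.49, 0.535 and 0.371 FPKM in A673 and at 3.76, 0.770 and 0.826 FPKM in SKNMC. Both passed 2-fold in each THZ1 library, while PBRM1, the polybromo subunit and named after its values were seen, stayed at 15.4 to 16.1 FPKM in A673 and 29.4 to 32.1 in SKNMC. Of the ISWI partners, 1 and 4 of 10 were lower in A673 and 2 and 3 of 11 in SKNMC, among them CHRAC1, a histone-fold subunit, at 51.2, 23.3 and 23.9 FPKM and 42.2, 18.3 and 19.0 FPKM.

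Of the 10 NuRD partners, 1 was lower in each comparison, though not the same gene with both doses. The median of the 10 was 0.05 and -0.55 in A673 and 0.06 and -0.36 in SKNMC. The 30 genes of the INO80, SRCAP and EP400 complexes, which exchange histone variants, held 4 and 10 lower genes in A673 and 7 and 8 in SKNMC. Those lower in each THZ1 library were VPS72, which carries H2A.Z, KAT5, an acetyltransferase, and ACTR8, an actin-related subunit. VPS72 stood at 37.4, 10.7 and 14.5 FPKM in A673 and at 39.5, 9.84 and 9.60 FPKM in SKNMC. KAT5 stood at 20.03, 7.40 and 4.25 FPKM and at 21.5, 8.19 and 5.97 FPKM. ACTR8 stood at 8.64, 2.50 and 1.81 FPKM and at 9.95, 3.95 and 2.19 FPKM. Of the 12 other SNF2 family ATPases, 1 and 3 were lower in A673 and 0 and 3 in SKNMC, and of the 8 SIN3 and retinoblastoma partners of the ARID4 proteins 1 and 3 in each line.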

How the data were processed

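The values analysed were the 6 columns of FPKM that the authors deposited, for protein-coding and lincRNA genes, 1 column for each of 6 labelled libraries. A column is called an average in the table's title, but each condition has 1 labelled library. By the methods, STAR placed 100-bp paired-end reads on hg19 with the Ensembl 75 annotation and StringTie estimated FPKM, whereas the submitters' processing notes name Cufflinks; versions and strandedness are not given in the sources used here. The authors' 4 log2 fold change columns were not used.

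Conditions were taken from the labels, which spell the second line SKMNC in the titles. Changes used a pseudocount of 1, genes above 1 FPKM with DMSO and a threshold of 2-fold. Known shifts put into 200 genes of the deposited values were returned by the formula. That holds by construction, so it checks the code only. Alternatives were a pseudocount of 0.1, 3 scalings, minimums of 5 FPKM and none, and 1.5-fold. Levels were printed for SWI/SNF ATPases, ARID subunits, ISWI ATPases and CHD subfamily II above 1 FPKM, for members past 2-fold in at least 2 of the 4 THZ1 comparisons, and for the highest and lowest core subunit; partner genes were named where past 2-fold in all 4. A limma fit of log2(FPKM + 1) with line and treatment as terms and a mean-variance trend, added after seeing the data and tested on simulated data, was adjusted by Benjamini-Hochberg over all 10574 genes active in both lines. The members, lists and roles were chosen with earlier results of these data known. Promoters came from RefSeq on GRCh38.p14, and gene coordinates from the deposited table on hg19. Python 3.11.15, pandas 2.3.3, numpy 2.4.6, scipy 1.17.1, matplotlib 3.10.9, R 4.3.3 and limma 3.58.1 were used.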

Additional observations from a re-analysis of the deposited data

Results flagged for a closer look

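Both results below were picked out because a gene lay on one side of DMSO with both doses in one line and on the other side in the other line, and this contrast between lines was not tested. CHD4 changed by -0.056 and -0.22 in A673 and by 0.11 and 0.13 in SKNMC at 50 and 200 nM, and 93 of the 10574 genes active in both lines (0.880%) had that pattern of signs. SMARCC1, a core SWI/SNF subunit, changed by 0.14 and 0.11 in A673 and by -0.14 and -0.17 in SKNMC, a pattern of signs held by 464 genes (4.39%). None of these 8 values reached 2-fold, both doses of a line share its DMSO library, and the 75th percentile and ribosomal protein scalings put values of both genes on the other side of 0.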

How the results depend on the processing

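Counts and medians of the 31 genes depended on scaling more than on the other choices. The share of all genes past 2-fold moved with the scaling as well, and a 1.5-fold threshold lets more genes pass. The shares of all active genes under these settings are not given beside the counts made outside the limma fit. Nothing about the members is therefore read from these counts. With the 75th percentile scaling, the members at least 2-fold lower numbered 1 in A673 with 50 nM, 4 in SKNMC with 200 nM and 3 in SKNMC between the doses, and those higher 1 in A673 and 2 in SKNMC with 200 nM. Under it the median change was 0.15 in A673 and 0.037 in SKNMC with 50 nM, both above 0 where the reported values were below, and -0.021 in SKNMC with 200 nM. With the ribosomal protein scaling, 1 was higher in SKNMC with 50 nM, 18 were lower there with 200 nM, and the medians were -0.59 and -1.10. At 1.5-fold, 1 member was higher in A673 at each dose and 2 in SKNMC with 200 nM, 6 were lower in SKNMC with 50 nM and 12 between its doses, and 14 differed between the lines with DMSO. Of the changes of single members under the other pseudocount and the scalings, 462 kept their side of 2-fold, 20 passed it, 14 no longer did and 0 of those past 2-fold reversed. The other alternatives tried kept the counts within 1.5 times and the directions of the medians. The labels give no replicate numbers that pair libraries. The limma fit with the line as a block was chosen after seeing the data. Under the 75th percentile scaling it called 4 members lower with 50 nM and 7 higher with 200 nM, in place of 8 and 1. The shares of all fitted genes there were 25.2% and 24.7%. Under the ribosomal protein scaling it called 15 lower with 50 nM and 0 higher with 200 nM, in place of 8 and 1. The shares of all fitted genes there were 55.3% and 0.359%. Other counts of the fit against DMSO stayed within 1.5 times. Each condition is 1 library, so no replicate could be left out. The depth is unknown, so counting error cannot be given for low members such as ARID5A or CHD7.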
